A study of Bos taurus with 16 samples.

Results

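Transcripts of 10 bovine genes of glucose uptake and glycolysis were followed from the oocyte to the blastocyst. The genes were taken by name: the glucose transporters SLC2A1 and SLC2A3, the hexokinases HK1 and HK2, the phosphofructokinase PFKP, the aldolase ALDOA, the phosphoglycerate kinase PGK1, the enolase ENO1 and the lactate dehydrogenase subunits LDHA and LDHB. Each name belonged to 1 of the 27393 loci of the deposited table, so all 10 were found. The samples were Bos taurus oocytes matured in vivo (MII) and in vivo developed embryos at the 2-cell (2C), 4-cell (4C), 8-cell (8C), 16-cell (16C), early morula (EM), compact morula (CM) and blastocyst (BL) stages, with 2 samples at each of 8 stages and no treatment. Every sample was 1 oocyte or 1 embryo, whose total RNA was amplified in 2 rounds and sequenced on the SOLiD platform. The labels give neither the breed, the dam nor the collection day of a sample, so p-values measure the spread between these samples.

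Glucose enters cells through transporters of the SLC2 (GLUT) family, is trapped by hexokinase, and is broken down by the glycolytic enzymes to pyruvate. Lactate dehydrogenase interconverts pyruvate and lactate, and its 2 subunits assemble into tetramers, LDHA being the form that favours lactate production and LDHB the form typical of oxidative tissues. Cleavage-stage mammalian embryos are known to depend mainly on pyruvate and lactate, and glucose use increases around compaction and blastocyst formation. In cattle developing in vivo, the study places embryonic genome activation (EGA) between the 4C and 8C stages, so that 6 samples (MII, 2C, 4C) stand before it and 10 after it.

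Between 607672 and 3379426 reads per sample were recovered from the deposited values, with a median of 1347534. Levels are given in CPM, the reads of a locus per 1e6 reads of its sample. CPM is not divided by transcript length, so levels are compared between samples and not between genes. The sources used here do not say how reads with several positions were counted, and reads that ALDOA, ENO1, LDHA, LDHB and GAPDH may share with related sequences cannot be told apart. A locus with 3 reads, taken as the detection floor, had 0.888 to 4.94 CPM depending on the sample, and floors and intervals cover counting error only. The summed level of 10 oocyte markers was 3103 to 10186 CPM before EGA and 7.86 to 58.4 CPM in 9 of the 10 later samples. The exception was 8C replicate 2, with 1489 CPM, of which the oocyte linker histone H1FOO gave 1347 CPM. The sum of 10 trophectoderm and blastocyst markers was 362 to 564 CPM before EGA, 84.6 to 591 CPM from 8C to compact morula, and 1739 and 1560 CPM in blastocysts. Before EGA it was mostly the sodium pump subunit ATP1B1, with 301 to 531 CPM against 6.15 to 22.0 CPM after EGA. Of this list, the epithelial keratins KRT8 and KRT18 together reached 913 and 870 CPM in the blastocysts, whereas CDX2 was at 0 in both. Outside the blastocysts, the keratin sum was highest in 16C replicate 2, at 216 CPM against 15.5 CPM in 16C replicate 1. The sum of 10 cumulus cell markers was 79.3 to 322 CPM before EGA and at most 31.7 CPM after it. Before EGA the hyaluronan synthase HAS2 gave 68.7 to 298 CPM of it, and HAS2 had reads in 2 of the 10 later samples. Among 6 blood cell markers, at most 3 had reads in a sample, with sums of 2.86 to 22.3 CPM. The part of these differences between libraries in the results below was not tested beyond the values given without them.

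The 10 genes fell into different patterns: 4 were low before EGA and higher in every sample after it (SLC2A1, SLC2A3, ALDOA, LDHB), LDHA was high at the 2C and 4C stages and again in blastocysts, ENO1 was high in blastocysts, and 4 had few reads or none (HK1, HK2, PFKP, PGK1). The plot of levels by stage shows 8 of them.

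**Figure D1:**
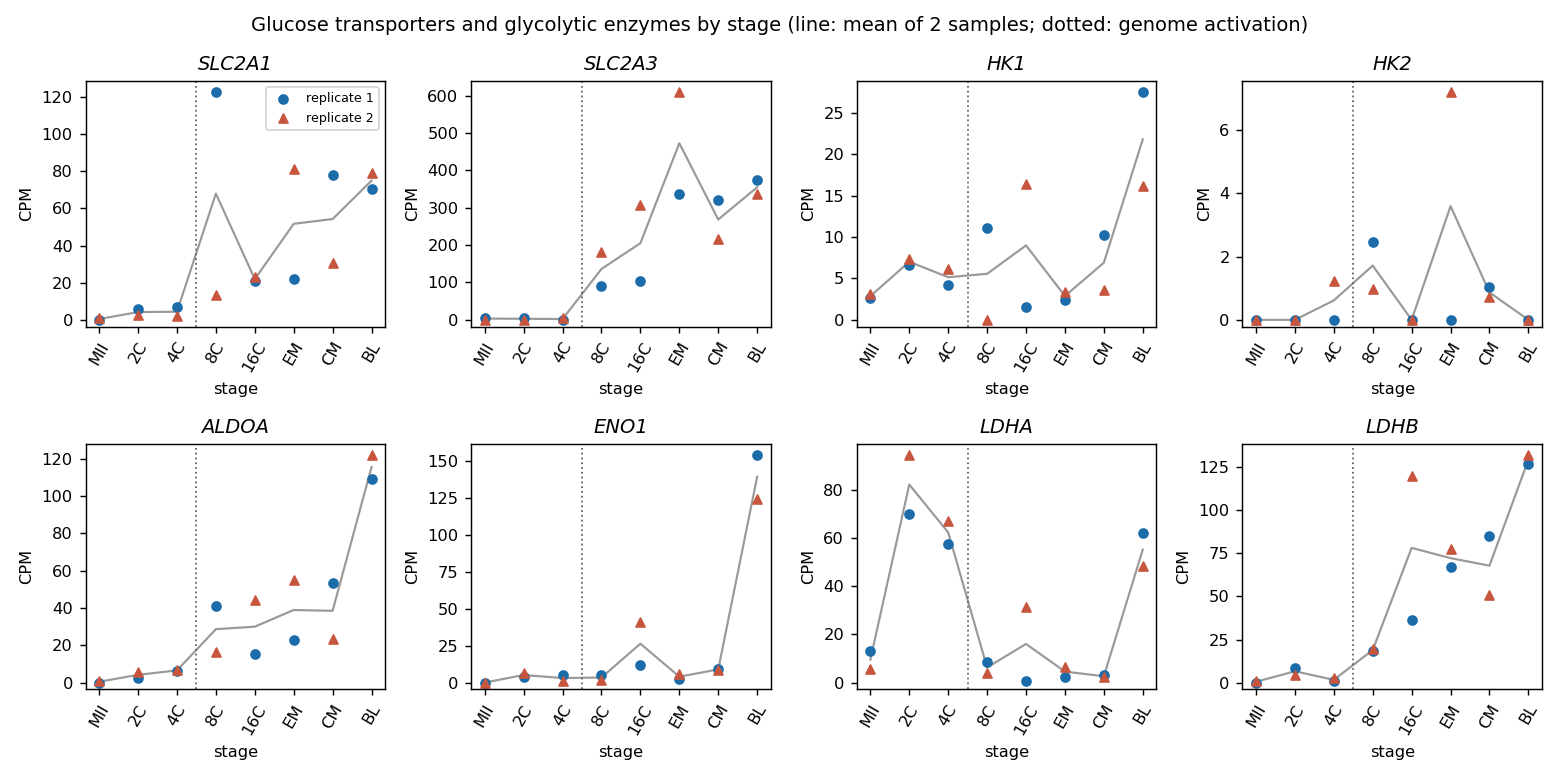
CPM of 8 genes (y axis, linear, own scale in each panel) at 8 stages (x axis), with a point for each of the 2 samples of a stage, a line through their mean, and a dotted line at EGA. SLC2A1, SLC2A3, ALDOA and LDHB lie higher in all samples from the 8C stage on. LDHA is highest at 2C, with 4C and BL overlapping below it, and ENO1 is highest at BL.

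SLC2A3 (GLUT3; XLOC_057667), a high-affinity glucose transporter, had between 1 and 14 reads in each of the 6 samples before EGA. Its levels were 6.20 and 0.876 CPM in the oocytes, 5.32 and 0.296 CPM at 2C, and 0.694 and 3.69 CPM at 4C. From the 8C stage on they were 91.6 and 181 CPM at 8C, 103 and 308 CPM at 16C, 337 and 609 CPM in early morulae, 319.8 and 217 CPM in compact morulae, and 373 and 336 CPM in blastocysts. The lowest of the 10 later samples was thus above the highest of the 6 earlier ones. The fitted log2 change at EGA was 6.06 ± 0.45 (SE; limma). No p-value is given for it, because SLC2A3 reached the filter on low reads (7.42 CPM in enough samples) in none of the samples before EGA, so it entered this test only through the later samples and had to differ. The same holds for SLC2A1, ALDOA and ENO1 at EGA. Between 4C and 8C alone, SLC2A3 rose by 5.67 ± 0.83 (limma, log2, adjusted p = 2.1e-04). Early morulae ranked first and overlapped with blastocysts, and compact morulae, 16C and 8C followed, with overlap between compact morulae and 16C and between 16C and 8C.

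SLC2A1 (GLUT1; XLOC_050477), the transporter of basal glucose uptake in most cells, had 0 and 0.876 CPM in the oocytes, 5.99 and 2.37 CPM at 2C, and 6.94 and 1.84 CPM at 4C. Later samples had 122 and 13.5 CPM at 8C, 20.9 and 23.0 CPM at 16C, 22.1 and 81.4 CPM in early morulae, 77.9 and 30.7 CPM in compact morulae, and 70.7 and 79.3 CPM in blastocysts. All 10 later samples were above all 6 earlier ones, but within 8C, early morulae and compact morulae the 2 embryos of a stage differed widely. The fitted change at EGA was 3.62 ± 0.55 (limma, log2). The step from 4C to 8C was 3.22 ± 0.99 (limma, log2, adjusted p = 0.0201), but with single samples left out it ranged from 1.52 to 4.92. It missed the threshold without 8C replicate 1 (log2 change 1.52, adjusted p = 0.275) or without 4C replicate 2 (2.44, adjusted p = 0.174).

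The transporters were also compared within each sample. The mean log2 ratio of SLC2A1 to SLC2A3, with 1 CPM added to each, was 0.03 ± 1.76 (SD, n = 6) before EGA and -2.52 ± 1.24 (SD, n = 10) after it. The difference was -2.55 (two-sided exact permutation test of the period labels, p = 0.00774, adjusted p = 0.0116 over 3 ratios). Before EGA the ratio rests on 0 to 14 reads per gene and sample, and the added 1 CPM draws it towards 0, so that no ratio of the transporters before EGA is read from it. After EGA, 8C replicate 1 was the only sample with more reads of SLC2A1 than of SLC2A3, 99 against 74.

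The hexokinases, which phosphorylate glucose, had few reads. HK1 (XLOC_047311) had 148 reads over 15 samples. Its highest level was 27.5 CPM, in BL replicate 1, followed by 16.5 CPM in 16C replicate 2 and 16.1 CPM in BL replicate 2, while 16C replicate 1 had 1.55 CPM. The other samples were between 0 and 11.1 CPM. HK1 did not pass the test of a stage effect (limma, adjusted p = 0.415), but without 8C replicate 2 and 16C replicate 2 together its adjusted p was 0.0319, and without 8C replicate 1 it was 0.0310. HK2 (XLOC_007598) had 20 reads in 6 samples, 13 of them in EM replicate 2, and PFKP (XLOC_012761), the platelet-type enzyme of the committed step of glycolysis, had 4 reads in 2 samples. These levels do not allow a comparison of stages. The log2 ratio of HK1 to HK2 differed between the periods by -0.33 (two-sided exact permutation test, p = 0.722, adjusted p = 0.722 over 3 ratios), a value that rests on at most 28 reads of either gene in a sample.

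ALDOA (XLOC_043433), which splits fructose bisphosphate, had 0 and 0.876 CPM in the oocytes, 2.66 and 5.62 CPM at 2C, and 6.25 and 6.76 CPM at 4C. It had 40.8 and 16.4 CPM at 8C, 15.5 and 44.4 CPM at 16C, 22.9 and 54.8 CPM in early morulae, 53.3 and 23.6 CPM in compact morulae, and 109 and 122 CPM in blastocysts. All later samples exceeded all earlier ones, and both blastocysts exceeded the other 14 samples. The fitted change of ALDOA at EGA was 3.28 ± 0.54 (limma, log2). The single step from 4C to 8C was 1.87 ± 0.76 (limma, log2) and missed the threshold (adjusted p = 0.0648), while edgeR on the recovered reads gave 0.0453, DESeq2 0.0358, and limma without 8C replicate 2 0.0255. The step from compact morula to blastocyst, 1.50 ± 0.76 (limma, log2), did not pass (adjusted p = 0.318).

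PGK1 (XLOC_075091), which catalyses the first ATP-forming step, was at 0 in all 16 samples. Its locus lies in a run of 2578 consecutive loci of the table that are all at 0, where the next longest run has 98. No level can therefore be given for PGK1.

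ENO1 (XLOC_019460), the enolase of most tissues, had no reads in either oocyte, 3.99 and 6.21 CPM at 2C, 4.86 and 1.23 CPM at 4C, and 4.95 and 1.92 CPM at 8C. It had 11.6 and 41.1 CPM at 16C, 2.45 and 5.54 CPM in early morulae, 9.23 and 8.57 CPM in compact morulae, and 154 and 125 CPM in blastocysts. The blastocysts were thus far above every other sample, and 16C replicate 2 came next. ENO1 rose from compact morula to blastocyst by 3.67 ± 0.78 (limma, log2, adjusted p = 0.0131). At EGA the fitted change was 2.32 ± 0.83 (limma, log2) and the groups overlapped. The adjusted p missed the threshold without MII replicate 1 (limma, 0.0521) or MII replicate 2 (0.0514). ENO1 met the filter on low reads in exactly 6 later samples, and it could not be tested without the blastocysts or when any of those 6 was left out. The step from 4C to 8C was 0.23 ± 0.78 (limma, log2, adjusted p = 0.842).

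LDHA (XLOC_048785) had 13.3 and 5.70 CPM in the oocytes, 69.9 and 94.4 CPM at 2C, and 57.6 and 67.0 CPM at 4C. It had 8.66 and 3.85 CPM at 8C, 0.773 and 31.3 CPM at 16C, 2.45 and 6.64 CPM in early morulae, 3.08 and 2.14 CPM in compact morulae, and 61.9 and 48.4 CPM in blastocysts. Both 2C embryos were above both oocytes, and the blastocysts were again near the 4C embryos, far above the compact morulae. LDHA fell from 4C to 8C by 3.26 ± 0.96 on the log2 scale (limma, adjusted p = 0.0160), and over all samples at EGA by 2.56 ± 0.72 (limma, adjusted p = 0.00378). LDHA fell at EGA by 3.22 ± 0.61 (limma, log2) with the blastocysts left out, a setting added after their high levels were seen. From compact morula to blastocyst it rose by 3.86 ± 0.96 (limma, log2, adjusted p = 0.0322; edgeR, adjusted p = 0.0503). The difference of 2.27 ± 0.96 between oocytes and 2C embryos did not pass (limma, log2, adjusted p = 0.242). The fall from 4C to 8C missed the threshold without 4C replicate 1 (0.0765), 4C replicate 2 (0.0900) or 8C replicate 2 (0.0884).

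LDHB (XLOC_056910) went the other way at EGA. It had 0 and 0.876 CPM in the oocytes, 8.65 and 4.44 CPM at 2C, and 0.694 and 2.46 CPM at 4C. It had 18.6 and 19.2 CPM at 8C, 36.3 and 120.1 CPM at 16C, 67.0 and 77.5 CPM in early morulae, 85.1 and 50.7 CPM in compact morulae, and 127 and 132 CPM in blastocysts. No later sample overlapped with the earlier ones, and the 2 embryos agreed closely at 8C and in blastocysts. The fitted change of LDHB at EGA was 4.25 ± 0.52 (limma, log2). No p-value is given for it, because LDHB met the filter's 7.42 CPM in only 1 sample before EGA and in all 10 later ones. It thus entered this test through the later samples. From 4C to 8C, LDHB rose by 3.18 ± 0.70 (limma, log2, adjusted p = 0.00306).

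The subunit composition of the lactate dehydrogenase reads thereby turned over. LDHA made up 86.7% to 100% of the LDHA and LDHB reads in the 6 samples before EGA and 2.08% to 32.8% in the 10 after it. Among later samples the share was highest in BL replicate 1, at 32.8% (95% Wilson interval 26.6% to 39.7%, 192 reads), and in 8C replicate 1, at 31.8% (16.4% to 52.7%, 22 reads). It was lowest in 16C replicate 1, at 2.08% (0.369% to 10.9%, 48 reads). The mean log2 ratio of LDHA to LDHB was 3.68 ± 1.16 (SD, n = 6) before and -2.79 ± 1.44 (SD, n = 10) after EGA. The difference of -6.48 had p = 2.5e-04 in the two-sided exact permutation test, the smallest that this design can give, and an adjusted p of 7.5e-04 over 3 ratios. CPM is not divided by length, so a share describes reads, not subunits, and only its change between samples is read.

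**Figure D2:**
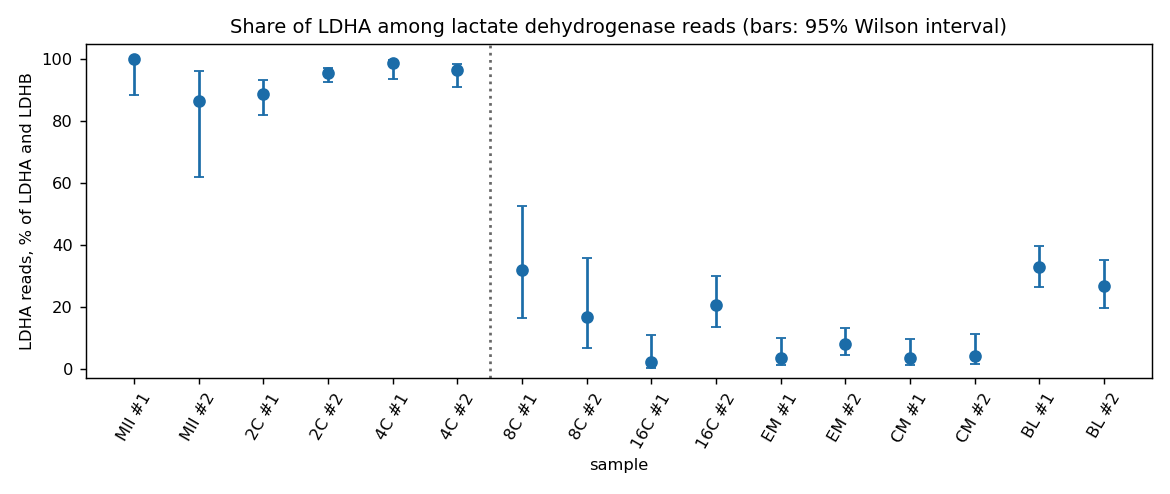
LDHA reads as a percentage of LDHA and LDHB reads (y axis) in each of 16 samples (x axis; # marks the replicate), with 95% Wilson intervals that cover counting error only and a dotted line at EGA. The 6 samples before EGA lie at 86.7% or more and the 10 after it at 32.8% or less.

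Across all 8 stages, 7 of the 10 genes had enough reads to be tested, and 6 of them passed the test of a stage effect (HK1 did not); of all loci tested, 66.7% passed. HK2, PFKP and PGK1 failed the filter on low reads. In the comparison before and after EGA, HK1 failed it too. Of the 6 genes tested there, 5 rose and LDHA fell, against 36.9% of all 6910 loci tested that rose and 29.9% that fell. SLC2A1, SLC2A3, ALDOA and ENO1 are the 4 that had to differ through the filter. LDHB, at the filter's cutoff in 1 earlier sample, also entered through its later samples, so the number is a description. Of all loci tested, 16% had every later sample above every earlier one, as 4 of the 6 genes did. The filter favoured this in SLC2A1, SLC2A3, ALDOA and LDHB, and nothing is read from it. The median log2 change of all loci was 0.23 and moved to 0.34 with TMM factors and 0.67 with total reads as the scale, and the 6 genes kept their directions under both. In whole embryos, fewer cells of a type and less RNA per cell cannot be told apart.

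At single steps, calls were fewer. From oocyte to 2C, 0 of 7 genes passed in limma, where 1.42% of all loci passed, and 0 in edgeR. ENO1 was called in DESeq2 (adjusted p = 0.0474) and in limma with a pseudocount of 0.5 (0.0444), and LDHB in limma with total reads as the scale (0.0431). At an unadjusted p under 0.05, 4 of the 7 genes and 16.4% of all loci passed in limma. From 4C to 8C, SLC2A1, SLC2A3 and LDHB rose and LDHA fell, where 17.7% of all loci rose and 19.1% fell. Between the earlier stages after EGA (8C and 16C) and the later ones (EM, CM and BL), 0 of 7 genes passed in limma, edgeR or DESeq2, and 0.993% of all loci passed in limma. At an unadjusted p under 0.05, 0 of the 7 passed in limma and edgeR and 1 in DESeq2, beside 15.7%, 13.3% and 12.9% of all loci. The adjusted count over all loci itself ranged from 0 to 438 loci when 1 sample was left out. From compact morula to blastocyst, ENO1 and LDHA rose, against 2.92% of all loci. Each of these 2 calls was lost whenever 1 of the 4 samples was left out, with adjusted p of 0.0599 to 0.0964 for ENO1 and 0.0958 to 0.188 for LDHA, while the log2 changes stayed between 3.55 and 3.79 and between 3.71 and 4.00.

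**Figure D3:**
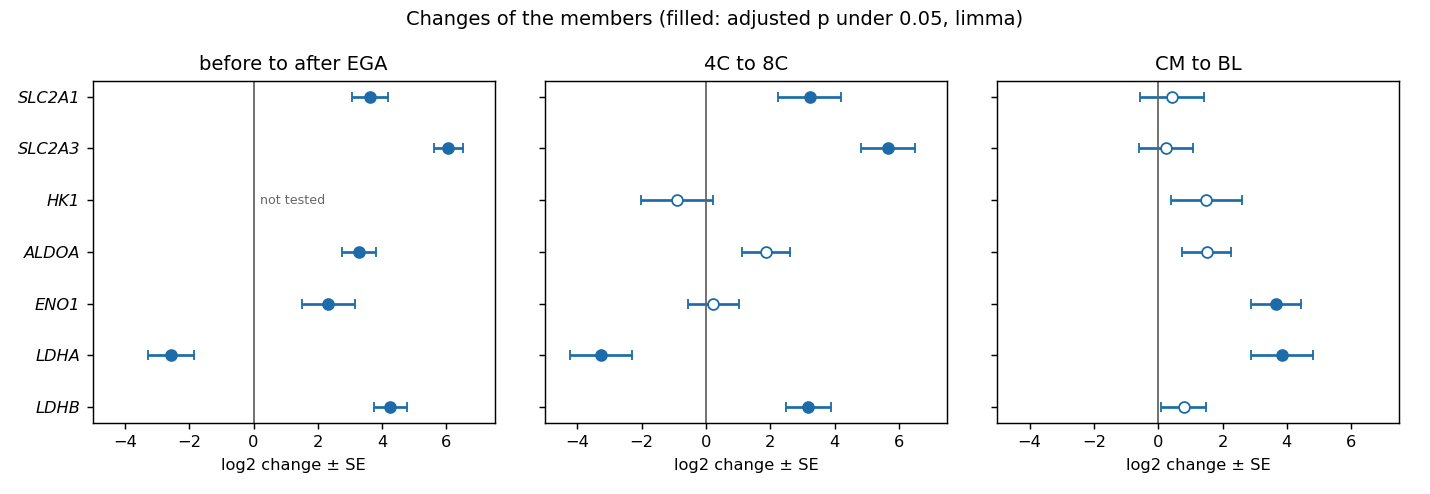
Log2 change with its SE (x axis) of 7 genes (y axis) in 3 comparisons, on the scale of log2(deposited value + 1). Filled points have a limma adjusted p under 0.05; 5 genes rose and LDHA fell at EGA, whereas ENO1 and LDHA rose from compact morula to blastocyst. SLC2A1, SLC2A3, ALDOA and ENO1 entered the comparison at EGA only through their later samples, as did LDHB, which met the filter's cutoff in 1 earlier sample.

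Of the samples from 8C to compact morula, 16C replicate 2 had the highest LDHA, ENO1, LDHB and HK1. This library, with 607672 reads the shallowest, had 31.3 CPM of LDHA and 41.1 CPM of ENO1. In the other 7 samples from 8C to compact morula, LDHA was between 0.773 and 8.66 CPM and ENO1 between 1.92 and 11.6 CPM, while LDHB (120.1 CPM) and HK1 (16.5 CPM) were at most 85.1 and 11.1 CPM in those samples. The keratins were 102 CPM (KRT8) and 114 CPM (KRT18) in the same library. Compact morula replicate 1 also had keratins, 80.0 CPM in sum against 0 in replicate 2, but its LDHA and ENO1 levels were close to those of replicate 2. Without 8C replicate 2 and 16C replicate 2 together, LDHA still fell at EGA, by 2.69 on the log2 scale (limma, adjusted p = 0.00417). From 4C to 8C the fall was 2.61 in that fit (limma, adjusted p = 0.0131) and the same without 8C replicate 2 alone, where it missed the threshold (0.0884).

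**Figure D4:**
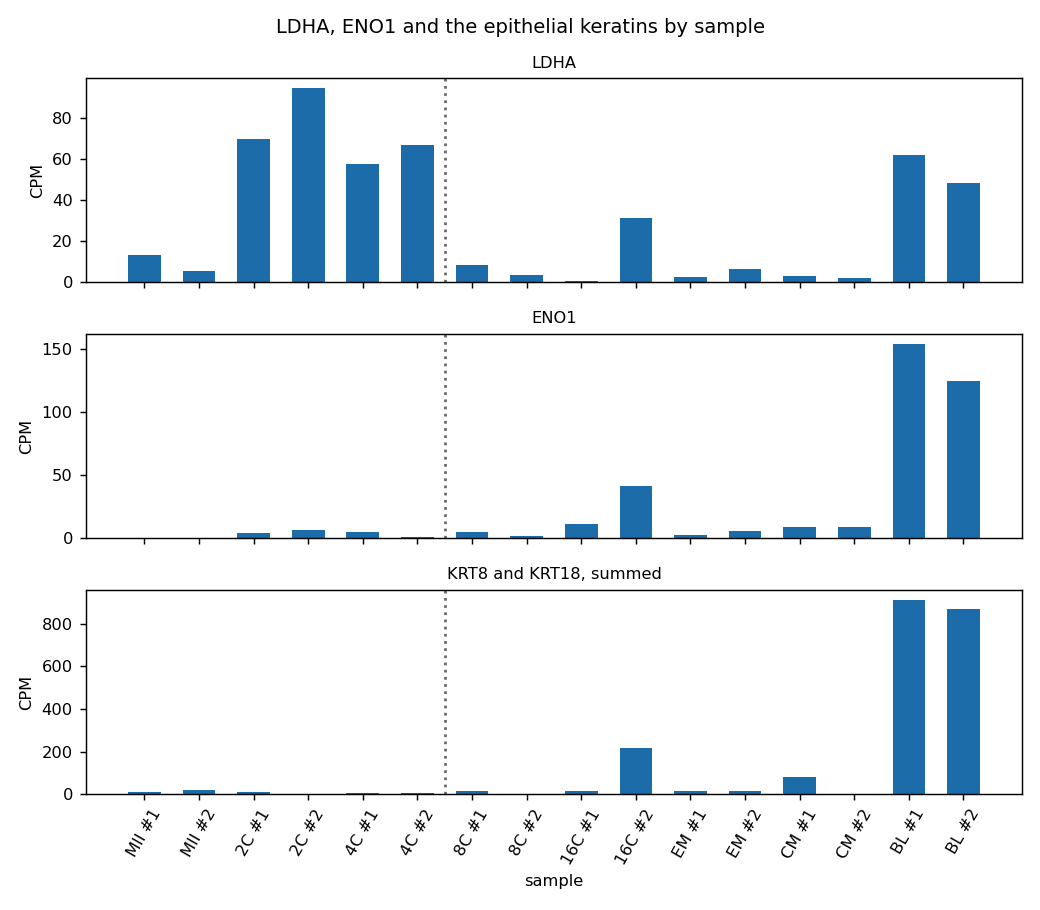
CPM (y axes, linear from 0) of LDHA, ENO1 and the sum of KRT8 and KRT18 in each of 16 samples (x axis; # marks the replicate), with a dotted line at EGA. Among the samples between EGA and the blastocyst, 16C replicate 2 is highest in all 3 panels, with 31.3, 41.1 and 216 CPM.

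Of 60 other genes of glucose and pyruvate use in 7 lists, 29 could be tested at EGA, and 16 rose and 10 fell, beside the 36.9% of all loci that rose and the 29.9% that fell. With TMM factors or total reads as the scale, 16 rose and 8 fell. Of the 16 that rose, 8 reached the filter's 7.42 CPM in no sample before EGA (SLC2A5, SLC2A8, SLC16A3, MPC2, PDHB, PC, PGLS and TKT), so that they passed it only through their later samples and had to differ. GPI, PGAM1, BSG, DLD and RPE reached it in 1 to 4 earlier samples and 9 or 10 later ones, so they too passed through the later ones. Of those that fell, SLC5A1, PKLR, PFKFB2 and PDK1 reached it in 6 earlier samples and 1 to 3 later ones, and passed through the earlier ones. The other glycolytic enzymes split: of 15 genes, 3 were tested, and the isomerase GPI and the mutase PGAM1 rose. The liver-type pyruvate kinase PKLR fell by 4.12 ± 0.59 on the log2 scale (limma), from 13.7 to 43.0 CPM before EGA to at most 8.66 CPM after it. No p-value is given for PKLR, because it met the filter's cutoff in 6 earlier samples and 1 later one and so passed through the earlier ones. GAPDH (XLOC_057671), the dehydrogenase often used as a reference gene, had at most 5.87 CPM at the higher of its 2 loci, no reads there before EGA, and too few in all to be tested. The muscle-type pyruvate kinase PKM was at most 2.07 CPM before EGA and 33.4 and 27.9 CPM in blastocysts.

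Of 8 hexose transporters, 3 were tested at EGA, and SLC2A5 and SLC2A8 rose while the sodium-coupled SLC5A1 fell. The fructose transporter SLC2A5 had no reads in the 6 samples before EGA and 3.85 to 164 CPM in all 10 after it, a fitted log2 change of 6.12 ± 0.57. In 8C replicate 2, the embryo with oocyte markers, it had 3.85 CPM, against 90.3 CPM in replicate 1.

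Among 7 regulators, 4 were tested at EGA; PFKFB2, TIGAR and the hypoxia factor HIF1A fell and PFKFB4 rose, TIGAR with an adjusted p of 0.0381 that became 0.0604 with TMM factors, 0.292 with total reads and 0.0668 in DESeq2. PFKFB2 and PFKFB4 both make fructose 2,6-bisphosphate, an activator of phosphofructokinase. PFKFB2 fell by 3.13 ± 0.53 on the log2 scale (limma). No p-value is given for PFKFB2, because it met the filter's cutoff in 1 later sample and so passed through the earlier ones. PFKFB4 (the higher of 2 loci) had 11.4 to 73.9 CPM before EGA and 1328 and 2342 CPM at 8C. It was at 609 and 362 CPM at 16C, 183 and 377 CPM in early morulae, 887 and 652 CPM in compact morulae, and 304 and 270 CPM in blastocysts. It was the 1 gene of the 35 tested in these lists called in limma from 8C and 16C to the later stages, where 0.993% of all loci were, falling by 1.54 ± 0.34 on the log2 scale (limma, adjusted p = 0.0415; 0.0782 with total reads as the scale; edgeR, adjusted p = 0.0597). Its 16C levels lay below both compact morulae. With total reads SLC16A7 was called instead, as higher, but it had reads in the 2 blastocysts only and passed the filter only through them.

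At the entry of pyruvate into the mitochondria, 7 of 9 tested genes of pyruvate dehydrogenase and its kinases changed at EGA, 3 up and 4 down, a share near the 66.8% of all loci. Of the E1 subunits, PDHB went from at most 3.47 CPM to at least 51.0 CPM, a fitted log2 change of 5.83 ± 0.43, and PDHA1 fell. The inhibitory kinase PDK1 fell by 3.18 ± 0.57 on the log2 scale (limma), and PDK3 fell too. No p-value is given for PDK1, because it met the filter's cutoff in 3 later samples and so passed through the earlier ones. Of 5 tested genes of lactate and pyruvate transport, 4 rose (SLC16A1, SLC16A3, BSG and MPC2) and none fell. Of 5 tested pentose phosphate genes, 4 rose and RPIA fell (of its 2 loci, the higher was used). The call of RPIA (limma, adjusted p = 0.0337) was lost with TMM factors (0.0506) and total reads (0.0797), and that of RPE in edgeR (0.323) and DESeq2 (0.156). The transketolase TKT had 0 to 5.53 CPM before EGA and at least 48.3 CPM after it, a fitted log2 change of 5.64 ± 0.44. None of the 5 gluconeogenesis genes had enough reads for this test. PDP2 and TALDO1 lie in the same run of loci at 0 as PGK1.

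**Figure D5:**
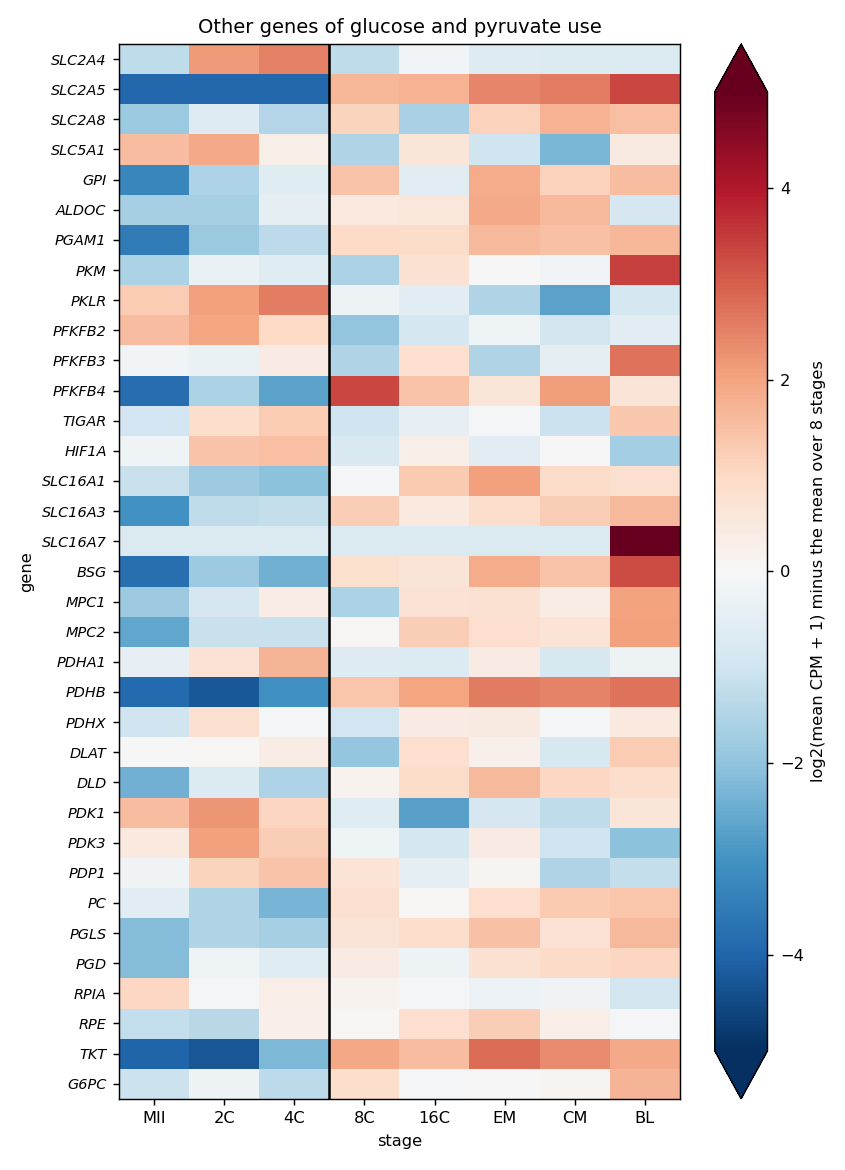
Each row is 1 of the 35 other genes tested across 8 stages (x axis), coloured by log2(mean CPM + 1) of a stage minus the gene's mean over the 8 stages, with a line at EGA. SLC2A5, PDHB and TKT are low before EGA, PKLR, PFKFB2 and PDK1 are high before it, and SLC16A7 has reads in blastocysts only.

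From compact morula to blastocyst, 3 of the 35 genes passed in limma, all higher in blastocysts, where 2.92% of all loci were; they are named after their values were seen. The monocarboxylate transporter SLC16A7 had no reads in 14 samples and 22.6 and 95.4 CPM in the blastocysts, so it passed the filter only through them and had to differ. PKM, with a fitted log2 change of 3.45 ± 0.88, met the filter's cutoff in both blastocysts and 1 other sample, so it too passed only through the blastocysts, and it missed the threshold with TMM factors (adjusted p = 0.0508). TIGAR rose by 2.27 ± 0.60 (limma, log2, adjusted p = 0.0430), but missed the threshold with TMM factors (0.0646). In edgeR, SLC16A7 was the 1 gene of the 35 called (adjusted p = 0.0465). In DESeq2, TIGAR was called higher (0.0126) and PFKFB4 lower (0.0363), and SLC16A7 was not called (0.508).

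Loci whose log2 values followed those of the genes most closely were sought for the 3 genes with the highest mean CPM, over 16 samples and among 9091 named loci. For SLC2A3 they were HNRNPAB, ATXN7L3 and TWISTNB (Pearson r of 0.97 for each). For LDHB they were TPM4, SLC1A1 and RPL36AL (r of 0.98, 0.97 and 0.96), and for SLC2A1 LOC615989, NDUFS7 and SNX22 (r of 0.94 for each). These correlations describe samples that share the step at EGA.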

How the data were processed

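Total RNA of 16 single bovine oocytes and embryos was amplified and sequenced by the authors. Per the labels, the submitters' processing notes name cutadapt, FastQC, TopHat, Cufflinks and HTSeq, while the genome build and the rule for reads with several positions are not given in the sources used here. The deposited signal is the read count of each locus divided by a size factor of the sample. The non-zero values of every sample were whole multiples of its smallest one (tolerance 0.01 reads), which gave back the reads and their depth.

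The 10 genes, the lists and the tests were chosen with earlier results of these data known. Samples were grouped by the stage in the labels. log2(deposited value + 1) was tested by limma 3.58.1 (empirical Bayes with trend, R 4.3.3) with Benjamini-Hochberg adjustment at 0.05 over all loci kept by edgeR's filterByExpr, 9670 in the model of 8 stages and 6910 in the comparison at EGA. A pseudocount of 1 understates changes of low genes. Fits were tested on simulated data with 200 loci changed 8-fold. Recovered were 93.5% at EGA, 97% from 8C and 16C to the later stages and 48.5% from 4C to 8C. Of changes in blastocysts alone, the test of a stage effect recovered 41.5%. A missed call at a single step is therefore not read as no change. Ratios were tested by exact permutation (scipy 1.17.1). The results were recomputed with a pseudocount of 0.5 or 5, without the filter, with total reads or TMM factors as the scale, in edgeR 4.0.16 and DESeq2 1.42.0, with a replicate block, and without 8C or each single sample. Leaving out the blastocysts, leaving out 8C replicate 2 with 16C replicate 2, and crossing the block were added after seeing the data.

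Named were the 10 genes, GAPDH, the 3 largest rises and falls in the other lists at EGA and after it, and the 3 loci most alike to each of 3 genes. Other genes of these lists were named after their values were seen, where a count was small. No sequences were available to print.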

Additional observations from a re-analysis of the deposited data

Results flagged for a closer look

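In the 20 groups examined (10 genes, before and after EGA, on the log2 scale), 2 samples lay farther from their group than the 95% limit of Dixon's ratio of gap to range allows, which chance gives in about 1 of 20 groups. HK2 had 1.23 CPM in 4C replicate 2 and no reads in the other 5 samples before EGA (ratio 1, limit 0.625). PFKP had 3.08 CPM in CM replicate 1 and 0 to 0.773 CPM in the other 9 samples after EGA (ratio 0.497, limit 0.466). Both rest on at most 3 reads.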

How the results depend on the processing

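Of 728 values of single genes under the alternatives, 683 kept direction and call, 16 lost the call, 11 gained it and 18 changed sign, none of the latter past the threshold. With no filter, 7075 loci were called at EGA, against 4619. From MII to 2C 137 loci were called, and 226 with TMM factors, 551 with total reads, 44 in edgeR and 360 in DESeq2; 84.7% of the calls were higher, 98.2% with total reads, 58.6% with a pseudocount of 5 and 69.7% in DESeq2. After EGA (8C and 16C against EM, CM and BL) 96 were called, 196 with a pseudocount of 5 and 242 in DESeq2; 39.6% were higher, 64.7% with total reads, 50.0% without the filter, 14.9% in DESeq2 and 2.70% in edgeR. From CM to BL 427 were called, and 154 in edgeR. With each sample left out in turn, calls ranged from 18 to 285 (MII to 2C), 1935 to 3844 (4C to 8C), 0 to 438 (after EGA; 0 without 16C replicate 1 and 438 without 8C replicate 1) and 132 to 381 (CM to BL). Where leaving out a sample left a stage with 1, its spread was assumed like that of the other stages. The causes were not tested.

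Log2 changes that did not pass in the test as reported turned sign as follows. HK1 from 4C to 8C became 0.24 in edgeR, 0.18 in DESeq2 and 1.16 without 8C replicate 2, alone or together with 16C replicate 2; leaving out single samples gave -2.95 to 1.16, and the -2.95 without 8C replicate 1 passed the threshold (adjusted p = 0.0458). After EGA, HK1 became -0.11 in edgeR and -0.15 in DESeq2 (-0.39 to 1.67 with samples left out), LDHA -0.34 and -0.39 (-0.72 to 1.25), and SLC2A1 -0.41 without both of those libraries (-0.32 to 1.37). With samples left out, SLC2A3 from MII to 2C ranged from -2.27 to 0.15, ENO1 from 4C to 8C from -0.52 to 0.99 and SLC2A1 from CM to BL from -0.090 to 0.95. The ratio of HK1 to HK2 differed by 0.083 with a pseudocount of 5 and by -0.64 to 0.0039 with samples left out. The other ratios kept direction and call under both pseudocounts and with each sample left out, at -3.12 to -2.11 for SLC2A1 to SLC2A3 and, for LDHA to LDHB, at -6.84 to -6.19 with samples left out and -6.98 to -4.73 with other pseudocounts.

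Samples that share a replicate number come from separate embryos, and their deviations correlated by -0.26 to 0.13 over 28 pairs of stages. The labels do not say whether a number stands for a shared dam or day, and these correlations cannot decide it. A replicate block gave 4579 calls at EGA, 109 from MII to 2C and 392 from CM to BL, and changed no call of the 10 genes. With the numbers of the 2C samples crossed, 122 loci were called from MII to 2C. Each name had 1 locus, so summing loci changed nothing. Reads limit HK1, HK2 and PFKP, and all genes close to 3 reads before EGA.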
